A study of Mus musculus with 24 samples.

Results

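The passage from primitive streak stage cells (PS) to early definitive endoderm (DE1) was followed in vehicle-treated mouse cells, in 6 of the 24 libraries of the series. PolyA RNA was sequenced from the groups PS_DMSO and DE1_DMSO, each with 1 library from each of the cell lines 7H, 7H1 and 7H2, and libraries of the same line were compared. Every one of the 18205 genes in the deposited table is a member of the comparison, and 14450 of them had values high enough to be tested. PS cells had spent 16 h in activin A at 40 ng/ml with CHIR, an activator of WNT signalling, at 3 µM. DE1 cells went on from there for 24 h in activin A at 100 ng/ml with LDN, an inhibitor of BMP receptors, at 100 nM. All of these cells, vehicle included, carry OTX2-dTAG-EGFP on a BL6/129 hybrid background, so no library of an unmodified line is part of the comparison. The DMSO exposure was 21 h at each stage, which is longer than the PS induction. How the 3 lines are related is not stated in the labels, and no wild-type embryo stage was compared. The series also holds an epiblast stage (EPI), in activin A with FGF2 and the compound NVP, and a later endoderm stage (DE2). DE2 cells were kept longer than DE1 cells in the same doses of activin A and LDN. At every stage, other libraries got dTAG13, the degrader of the tagged OTX2, for 21 h in place of DMSO. The p-values speak for the 3 lines 7H, 7H1 and 7H2 only. The spread behind them comes from the 12 vehicle libraries of all 4 stages, and not from the 6 PS and DE1 libraries alone. An SE can therefore differ from the scatter of the PS and DE1 values printed beside it. The step changes time, activin A dose, CHIR and LDN together, and their effects cannot be told apart.

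In the gastrulating embryo, cells of the anterior primitive streak that receive high NODAL signalling become definitive endoderm, the layer that later lines the gut and forms the liver and pancreas. WNT signalling starts the streak and maintains its posterior end, while secreted WNT and NODAL antagonists mark the anterior endoderm. Activin A stands in for NODAL in culture, since both ligands act through the same receptors and SMAD proteins.

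Values are the authors' normalised read counts, given for the lines in the order 7H, 7H1 and 7H2, then as mean ± SD with n = 3. Log2 fold changes (DE1 minus PS, with their SE) come from limma on log2 of the value plus 1, with the line as a block, and a call means an adjusted p (Benjamini-Hochberg) under 0.05. Adding 1 understates the change of low genes. The 6 libraries summed to 25.80 to 27.25 M normalised counts, an estimated 20.7 to 32.6 M reads (M, 10 to the power of 6), with 1.39 to 2.05% of the signal in mitochondrial genes. Libraries of PS correlated with each other at a Pearson's r of 0.9648 to 0.9692 over genes, those of DE1 at 0.9605 to 0.9716, and a PS with a DE1 library at 0.8540 to 0.8884. These are bulk samples, so fewer cells of a kind and less RNA per cell cannot be told apart in any of the values that follow.

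The step moved a large part of the transcriptome. Of the 14450 genes tested, 3196 rose (22.1%) and 3210 fell (22.2%), so 44.3% were called, and the median log2 fold change over all tested genes was -0.0058. The counts given for each gene list below are to be read against these 22.1% and 22.2%. A rise of at least 2-fold was called for 1689 genes (11.7%) and a fall of that size for 1407 (9.74%). The 3 PS values and the 3 DE1 values did not overlap for 8226 genes (56.9%), and 6199 (42.9%) were both called and free of overlap. Without line 7H2 the total of calls fell from 6406 to 4235, with 2186 rises and 2049 falls. A fit without a line has 3 residual degrees of freedom in place of 6, so calls can be lost whichever line is left out. The part of this in any call lost without a line was not tested.

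**Figure D1:**
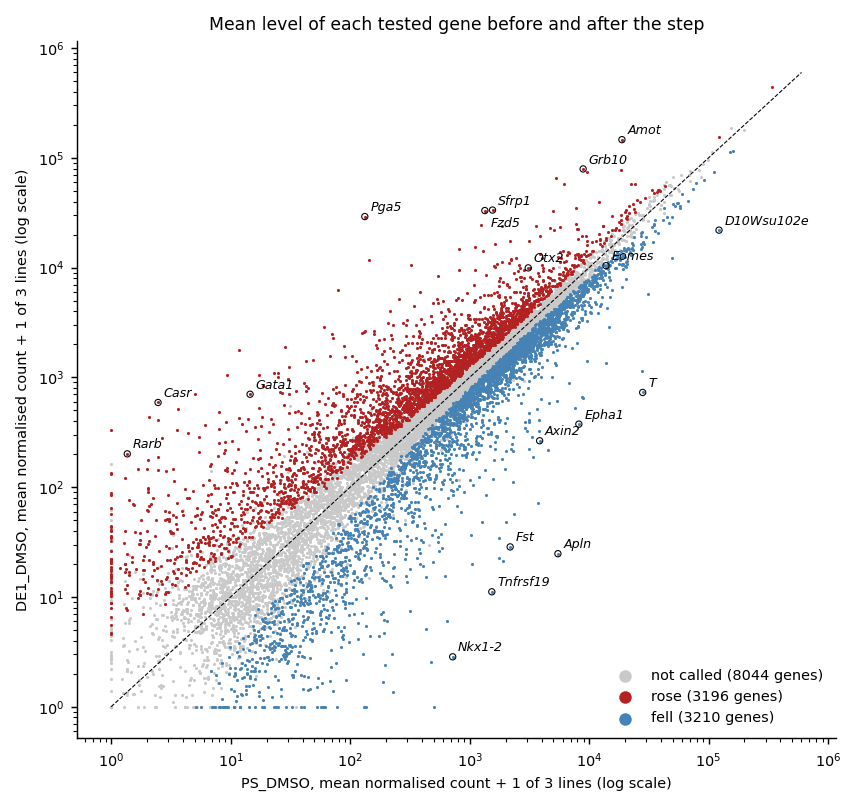
Mean normalised count plus 1 of each of the 14450 tested genes in PS_DMSO (horizontal, log scale) against DE1_DMSO (vertical, log scale), 3 lines each. Red points rose, blue points fell and grey points were not called, and the dashed line marks equal levels. Named genes are circled, with Pga5 and Amot far above the line and Apln, Tnfrsf19 and Nkx1-2 far below it.

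Otx2, the homeobox gene whose product carries the degradation tag, is transcribed in both groups. It stood at 2342, 3248 and 3699 in PS (3096 ± 691) and at 8656, 10972 and 10215 in DE1 (9948 ± 1181). Every DE1 library was above every PS library, and the log2 rise was 1.70 (SE 0.15, adjusted p = 8.95e-06, chr14:48657677-48673819, minus strand, GRCm38). Protein was not measured.

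Markers of the labelled cell types mostly moved with the labels. Of 23 tested definitive endoderm markers, 19 rose and 0 fell, with a median log2 fold change of 2.06. Of 21 tested primitive streak and mesendoderm markers, 4 rose and 15 fell, with a median of -2.90. The 4 that rose were Gsc, Lhx1, Nodal and Pdgfra, and the summed level of the 21 markers was 121290 to 126800 in PS and still 102190 to 111110 in DE1. Lhx1, which encodes a LIM-domain factor of head organiser cells and is in the endoderm list too, made up much of the DE1 sum, at 18634, 25843 and 23368 in PS and at 55457, 56474 and 62273 in DE1 (log2 rise 1.37, SE 0.16, adjusted p = 5.84e-05). In a fit of the 6 libraries alone, 2 of the endoderm markers fell, Eomes among them. That fit called all 21 streak markers, with 5 rises and 16 falls. Over all tested genes 22.1% rose and 22.2% fell. Kit, a receptor tyrosine kinase present on endoderm precursors, stood at 1459, 1724 and 1697 in PS and at 10168, 9760 and 10665 in DE1 (log2 rise 2.65, SE 0.14, adjusted p = 3.19e-07). Foxa2 and Eomes, transcription factors needed for endoderm, were not called in the main fit of 12 libraries. Foxa2 stood at 6713 ± 422 in PS and 4338 ± 202 in DE1 (log2 fold change -0.63, SE 0.55, adjusted p = 0.395), and Eomes at 13859 ± 843 and 10420 ± 565 (-0.41, SE 0.28, adjusted p = 0.266), although their PS and DE1 values did not overlap. The endoderm marker Gata4, picked after its values were seen, was called over the 3 lines (log2 rise 1.59, SE 0.39, adjusted p = 0.00896) and missed the threshold without 7H2 (adjusted p = 0.0616). T (Brachyury), a T-box factor of the streak and notochord, stood at 33284, 28404 and 22631 in PS and at 1135, 534 and 515 in DE1 (log2 fold change -5.35, SE 0.64, adjusted p = 0.000415). Mesp1, a factor of early mesoderm, stood at 1102, 1995 and 2971 and then at 13.6, 69.8 and 57.7 (-5.57, SE 0.52, adjusted p = 1.3e-05). Mixl1, a homeobox gene of mesendoderm, held 2894 ± 200 in DE1 after 14611 ± 553 in PS, and its call (log2 fold change -2.34, SE 0.56, adjusted p = 0.0103) was lost without 7H2 (adjusted p = 0.054).

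WNT pathway. WNT ligands are secreted lipid-modified proteins, frizzled proteins are their receptors with Lrp5 and Lrp6 as co-receptors, and TCF/LEF factors carry the signal to target genes. Of the tested members, 9 of 14 ligands and 15 of 22 targets fell, while receptors and antagonists moved in both directions. The promoters of 2 of the falling targets are shown first because they hold the TCF/LEF core searched for here.

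For each promoter in the RefSeq table (GRCm38.p6) the 250 bases before the start were searched, on either strand. Of 13 WNT target and feedback genes with such a promoter, 2 hold the 7-base TCF/LEF core CTTTGAT or its reverse complement ATCAAAG. This list holds other searched strings as often or more often, the OTX2 core TAATCC in 2 of 13 (6.21% of all promoters) and the E-box CACGTG in 3 of 13 (9.65% of all). Over all tested genes with a promoter, 302 of 10876 hold it (2.78%), as do 36 of 1293 that rose at least 2-fold (2.78%) and 37 of 1010 that fell at least 2-fold (3.66%). A match is a string of letters and not a shown site, and both promoters were picked after the values of the genes were seen. The stretches are printed 5′ to 3′ on the gene's strand with the core in capitals. That of Sp5, a zinc-finger factor induced by WNT, covers chr2:70474673-70474922 (plus strand), with the core 104 bases before the start. That of Tnfrsf19, a receptor of the TNF receptor family, covers chr14:61038118-61038237 (minus strand), with the core 202 bases before the start.
Sp5: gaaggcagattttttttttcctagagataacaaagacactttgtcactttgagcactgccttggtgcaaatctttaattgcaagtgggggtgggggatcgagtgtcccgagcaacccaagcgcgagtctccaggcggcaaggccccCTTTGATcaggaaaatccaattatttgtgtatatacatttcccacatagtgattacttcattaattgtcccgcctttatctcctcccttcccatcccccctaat
Tnfrsf19: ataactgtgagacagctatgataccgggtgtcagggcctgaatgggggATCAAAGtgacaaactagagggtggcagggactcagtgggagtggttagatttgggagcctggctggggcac

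Both genes fell in every line. Sp5 (chr2:70474923-70477729) stood at 7466, 8821 and 10157 in PS and at 623, 647 and 689 in DE1 (log2 fold change -3.74, SE 0.50, adjusted p = 0.000274). Tnfrsf19 stood at 1789, 1502 and 1309 and then at 13.2, 3.42 and 13.8 (-7.29, SE 0.59, adjusted p = 9.13e-06). The groups were apart for both, and Tnfrsf19 was among the 12 largest falls. In the list of 22 tested WNT targets 15 fell, 3 rose and 4 were not called. Axin2, a scaffold of the complex that destroys beta-catenin and a feedback gene of the pathway, stood at 4003, 3870 and 3692 in PS and at 267, 253 and 271 in DE1 (-3.86, SE 0.27, adjusted p = 2.14e-06, chr11:108920349-108950783). Its 3 DE1 values lay close together, far below every PS value. Lef1, a TCF/LEF factor, fell by 3.03 on the log2 scale (SE 0.28, adjusted p = 1.44e-05). Sp8, a relative of Sp5, was listed at 0 in 2 DE1 libraries, with 12.4 in 7H, after 670, 344 and 282 in PS. The count of falling targets was 12 to 14 without any 1 line, and that of rising targets was 1 without 7H or without 7H1.

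Of 14 tested WNT ligands 9 fell and 0 rose, with a median log2 fold change of -1.89. Without 7H2 the falls numbered 4 of 12 tested, and without 7H 5 of 12. Wnt3, the ligand that starts the streak in the mouse, stood at 2973, 2786 and 3046 in PS and at 388, 367 and 419 in DE1 (log2 fold change -2.90, SE 0.23, adjusted p = 4.88e-06, chr11:103774150-103817957). Wnt5b, a ligand mostly of the beta-catenin-independent branch, stood at 1328, 1179 and 1268 and then at 58.0, 45.4 and 36.8 (-4.74, SE 0.73, adjusted p = 0.000731). The ligand genes Wnt3a (log2 fold change -4.67, SE 0.71) and Wnt6 (-5.53, SE 0.91) reached lower levels, with Wnt3a at 7.88, 4.26 and 5.75 and Wnt6 at 8.75, 0 and 0 in DE1.

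Receptor genes did not share a direction: of 21 tested, 6 rose, 7 fell and 8 were not called, against 22.1% rising and 22.2% falling of all tested genes. Fzd5, a frizzled receptor needed for yolk sac and eye development, gave the smallest adjusted p among the genes of the WNT lists. It stood at 1435, 1278 and 1308 in PS and at 28285, 34144 and 36871 in DE1 (log2 rise 4.62, SE 0.13, adjusted p = 6.53e-09, chr1:64730558-64737751, minus strand). The lowest DE1 library was far above the highest PS library, and the DE2 mean was higher still at 57805. Fzd8 rose by 2.71 (SE 0.19, adjusted p = 2.07e-06) and Fzd7 by 0.84 (SE 0.09, adjusted p = 4.87e-05). Fzd10, induced in the streak, fell by 2.07 on the log2 scale (SE 0.32, adjusted p = 0.000472). Znrf3, a ubiquitin ligase that removes frizzled receptors, stood at 719, 659 and 517 and then at 219, 215 and 210 (-1.54, SE 0.20, adjusted p = 0.000145). The co-receptors Lrp5 (4004 ± 287 in PS, 4806 ± 474 in DE1, adjusted p = 0.0655) and Lrp6 (3116 ± 835, 2634 ± 115, adjusted p = 0.404) were not called over the 3 lines, and Lrp6 passed the threshold without 7H2 (adjusted p = 0.0243).

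Among 16 tested WNT antagonists 7 rose and 4 fell. Sfrp1, a secreted frizzled-related protein that binds WNT, stood at 955, 1618 and 2091 in PS and at 30788, 33786 and 35824 in DE1 (log2 rise 4.50, SE 0.23, adjusted p = 4.6e-07). Its relative Sfrp5, a marker of anterior and foregut endoderm, stood at 4.99, 7.65 and 12.6 and then at 343, 1536 and 1256 (6.62, SE 0.41, adjusted p = 7.82e-07), with 7H the lowest line at both stages. Dkk1, which blocks the Lrp5 and Lrp6 co-receptors, rose by 1.65 (SE 0.19, adjusted p = 5.78e-05). Apcdd1 fell by 1.72 on the log2 scale (SE 0.25, adjusted p = 0.000314). Kremen2, a partner of Dkk1, fell from 46.7 ± 9.79 to 14.2 ± 5.67, a call lost without 7H1 (adjusted p = 0.136). Frzb, a secreted frizzled-related protein, was not called (2735 ± 583 in PS, 5215 ± 586 in DE1, adjusted p = 0.0965).

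NODAL and TGFB pathway. Activin A was present at both stages and its concentration rose with the step. NODAL binds type I and type II activin receptors with an EGF-CFC co-receptor, and SMAD2 and SMAD3 then act with FOXH1. The receptor and co-receptor list also holds Smad2, Smad3, Smad4 and Foxh1, and of its 12 tested genes 7 rose and 1 fell. Smad2, Smad3 and Foxh1 were among the rises. Of 15 antagonists 6 rose and 2 fell, and of 8 ligands 3 rose (1 without 7H1) and 2 fell. The EGF-CFC genes moved in opposite directions. Cfc1 (Cryptic) stood at 111, 273 and 385 in PS and at 4537, 5510 and 5332 in DE1 (log2 rise 4.49, SE 0.50, adjusted p = 0.000113). Tdgf1 (Cripto) stood at 27915, 30569 and 34969 and then at 5837, 5932 and 5488 (-2.43, SE 0.41, adjusted p = 0.00166), a call that did not hold without 7H (adjusted p = 0.0621). No library broke either order, and in DE2 the means were 535 for Cfc1 and 2596 for Tdgf1. The type I receptor Acvr1b rose by 1.14 (SE 0.12, adjusted p = 2.64e-05) and Smad3 by 1.34 (SE 0.21, adjusted p = 0.000445). Nodal itself was 2130 ± 136 in PS and 2891 ± 172 in DE1 (0.44, SE 0.14, adjusted p = 0.0237), and this call was lost without 7H (adjusted p = 0.116) and without 7H1 (0.0587).

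Feedback antagonists of NODAL were among the genes with the largest gains in level. Lefty1 stood at 6124, 10875 and 11970 in PS and at 68647, 79402 and 75749 in DE1 (log2 rise 3.01, SE 0.27, adjusted p = 2.25e-05). Lefty2 stood at 1142, 1568 and 2202 and then at 13452, 17517 and 18528 (3.37, SE 0.17, adjusted p = 2.92e-07). Cer1, which binds NODAL and in the frog also WNT and BMP, stood at 2396, 4931 and 8429 and then at 55382, 67171 and 73039 (3.80, SE 0.39, adjusted p = 0.000107). In all 3 genes line 7H was lowest at both stages while the stages stayed far apart. Dact2, which lowers NODAL receptor levels in the zebrafish, rose by 3.27 (SE 0.18, adjusted p = 3.55e-07). Fst, which binds activin, went the other way, from 2516, 2111 and 1926 to 26.0, 24.8 and 31.9 (-6.26, SE 1.24, adjusted p = 0.00402), and just missed the threshold without 7H (adjusted p = 0.0507).

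BMP pathway. LDN, the BMP receptor inhibitor, was in the DE1 medium only. Of 12 tested BMP target genes 5 rose and 3 fell, against 22.1% and 22.2% of all tested genes. The calls changed when a line was left out, with 1 rise and 3 falls without 7H and 3 rises and 1 fall without 7H2. Msx1, a homeobox target of BMP, stood at 1211, 1941 and 2180 in PS and at 10.1, 36.9 and 18.0 in DE1 (log2 fold change -6.43, SE 0.37, adjusted p = 5.42e-07). The ID genes, which encode inhibitors of bHLH factors, did not move as a family. Id1 (705 ± 213 to 259 ± 19.1) and Id2 (142 ± 22.7 to 54.0 ± 21.2) fell, while Id3 (1712 ± 319 to 2663 ± 15.3) and Id4 (30.6 ± 11.4 to 103 ± 40.7) rose. The calls of Id1 and Id2 were lost without 7H2 (adjusted p = 0.0876 and 0.0669), that of Id4 without 7H (0.112) and that of Id3 without any 1 of the lines. The ligand gene Bmp2 stood at 602, 751 and 647 and then at 4140, 3945 and 3980 (2.60, SE 0.12, adjusted p = 1.92e-07), with no overlap and little spread at DE1.

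FGF and ERK. FGF ligands signal through receptor tyrosine kinases to ERK, which induces its own feedback inhibitors. Of 10 tested ligands 3 rose and 6 fell, and of 15 ERK feedback genes 2 rose and 9 fell. Fgf10, a ligand of budding epithelia, stood at 231, 313 and 343 in PS and at 3099, 3390 and 3574 in DE1 (log2 rise 3.52, SE 0.23, adjusted p = 1.33e-06). Fgf4, a streak ligand, stood at 87.3, 167 and 184 and then at 1.13, 4.26 and 4.93 (-5.11, SE 0.65, adjusted p = 0.000126). The streak ligand Fgf8 was not called (5571 ± 448 and 10090 ± 485, adjusted p = 0.145) although its DE1 values all exceeded its PS values. A fit of the 6 PS and DE1 libraries alone did call it as a rise. The receptor genes moved apart, as Fgfr1 went from 5817, 4864 and 5029 to 1623, 1095 and 1206 (-2.02, SE 0.19, adjusted p = 1.59e-05), and Fgfr2 from 241, 99.8 and 131 to 399, 487 and 507 (1.65, SE 0.28, adjusted p = 0.000795). Feedback genes that fell include Dusp4 (log2 fold change -2.30, SE 0.15), Etv5 (-1.95, SE 0.14), Spry2 (-2.37, SE 0.16) and Dusp6 (-1.57, SE 0.18). In the same family, the sprouty genes Spry1 (1.09, SE 0.16, adjusted p = 0.000249) and Spry4 (0.67, SE 0.12, adjusted p = 0.00129) rose.

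**Figure D2:**
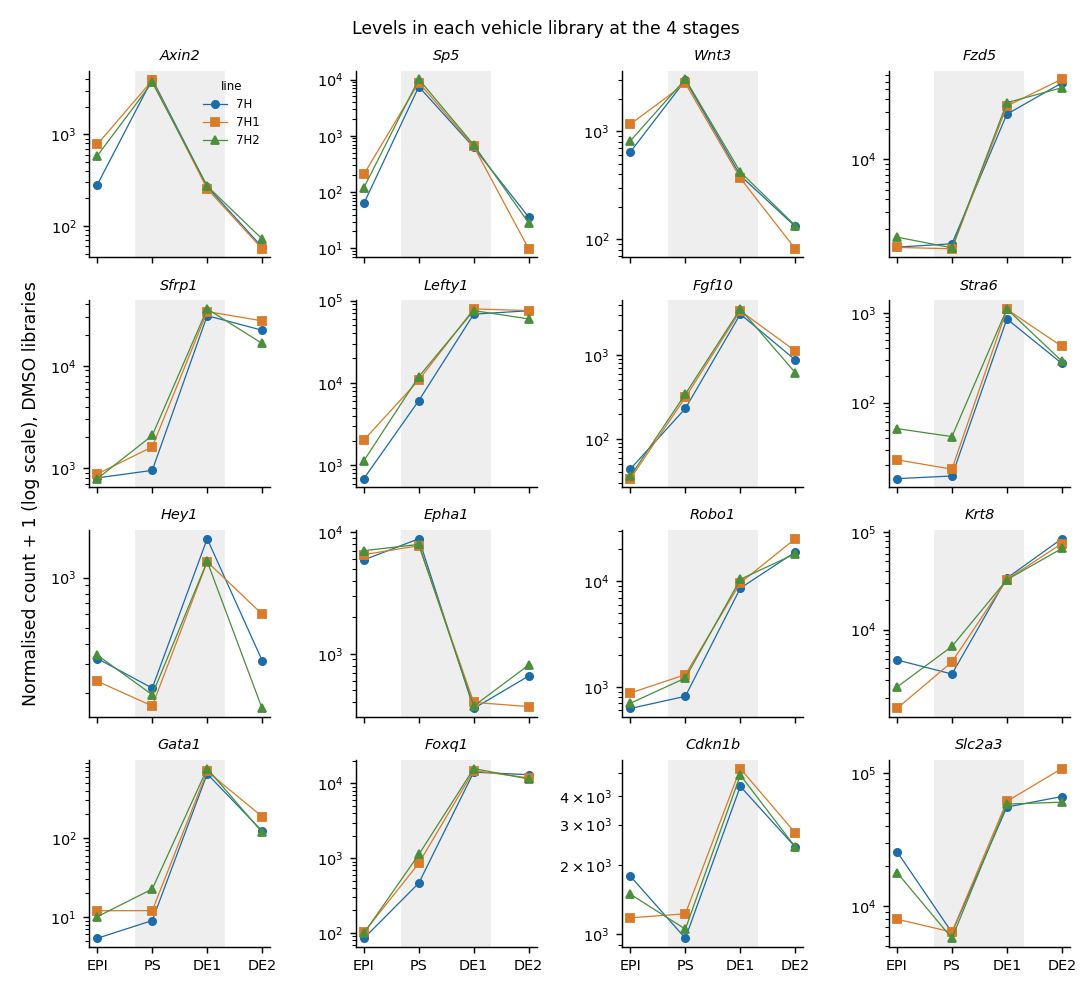
Normalised count plus 1 (log scale) in each vehicle library at the stages EPI, PS, DE1 and DE2 for 16 genes, with 1 symbol and colour per line. The grey band marks PS to DE1. Axin2, Sp5 and Wnt3 are highest in PS, Hey1, Gata1 and Stra6 are highest in DE1, and Fzd5, Robo1 and Krt8 are highest in DE2.

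NOTCH and Hedgehog. NOTCH receptors bind delta and jagged ligands on neighbouring cells, and fringe enzymes tune that binding. Of 20 tested pathway genes 7 rose and 3 fell, against 22.1% and 22.2% of all tested genes. Notch3 stood at 3281, 3538 and 2532 in PS and at 16509, 16830 and 19323 in DE1 (log2 rise 2.50, SE 0.14, adjusted p = 4.32e-07), and Notch1 at 1538, 2192 and 1603 and then at 526, 300 and 341 (-2.21, SE 0.21, adjusted p = 1.74e-05). The fringe genes split too, with Mfng from 33.8 ± 12.3 to 482 ± 28.3 and Lfng from 166 ± 52.9 to 34.4 ± 4.31. Hey1, a bHLH target of NOTCH, stood at 214, 167 and 195 and then at 1717, 1246 and 1253 (2.85, SE 0.36, adjusted p = 0.000131). It was back to a mean of 359 in DE2. Of 13 tested Hedgehog genes 8 fell and 2 rose, and 4 fell when either 7H or 7H2 was left out. Gli3, a zinc-finger effector, stood at 1471, 1349 and 791 and then at 311, 139 and 178 (-2.55, SE 0.42, adjusted p = 0.00108). The signal transducer Smo was not called (5411 ± 417 and 5473 ± 312, adjusted p = 0.889), and the ligand Shh (21.8 ± 1.95 to 91.6 ± 15.1, adjusted p = 0.0166) lost its call without 7H2 (0.0963).

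Retinoic acid. Retinoic acid made by retinaldehyde dehydrogenases acts through RAR and RXR receptors in the nucleus. Of 16 tested genes 5 rose and 7 fell. Stra6, the membrane receptor that takes up retinol from its carrier, stood at 14.2, 17.1 and 40.8 in PS and at 852, 1090 and 1102 in DE1 (log2 rise 5.48, SE 0.37, adjusted p = 1.58e-06). Rbp4, which encodes that carrier, stood at 44.8, 34.6 and 63.1 and then at 1176, 1493 and 1616 (4.91, SE 0.34, adjusted p = 1.97e-06). The receptor Rarb was listed at 0, 1.09 and 0 in PS and stood at 160, 228 and 213 in DE1, so its fitted log2 rise of 7.28 (SE 0.68, adjusted p = 1.35e-05) rests on PS values at or near 0. Rarg (660 ± 80.9 to 214 ± 20.7) and Rxrg (541 ± 118 to 30.9 ± 9.84) fell. The synthesis gene Aldh1a2 went from 57.4, 41.5 and 31.5 to 0, 2.56 and 0 (-4.82, SE 0.77, adjusted p = 0.000487). Cyp26a1, which degrades retinoic acid, stood at 5795, 9040 and 10468 and then at 7867, 12511 and 10945, which did not pass the test (adjusted p = 0.366).

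Migration and guidance. Endoderm cells leave the streak and spread over the outer surface of the embryo, and chemokine, apelin, semaphorin, Slit and ephrin signals steer such movements in many tissues. The chemokine and apelin list also holds the lipid receptor genes S1pr1, S1pr2 and S1pr3, and of its 10 tested genes 4 rose and 4 fell. S1pr2 and S1pr3 were among the rises, while Apln, Aplnr, Apela and Cxcl14 were the falls. Of 30 semaphorin, plexin, Robo and Slit genes 11 rose and 6 fell (3 fell without 7H). Eph receptors and ephrins gave 8 rises and 5 falls of 19 tested. Apln, the ligand of the apelin receptor, showed one of the largest falls: 6517, 5133 and 4808 in PS and 31.5, 10.2 and 29.6 in DE1 (log2 fold change -7.93, SE 0.78, adjusted p = 6.56e-05). Aplnr, its receptor, went from 3672, 3557 and 3853 to 514, 518 and 526 (-2.83, SE 0.32, adjusted p = 5.69e-05). Ackr3, a scavenging receptor of CXCL12, rose from 138, 253 and 287 to 2836, 3198 and 2965 (3.79, SE 0.38, adjusted p = 3.16e-05). Robo1, a receptor of Slit proteins, stood at 816, 1307 and 1213 and then at 8591, 9632 and 10427 (3.13, SE 0.13, adjusted p = 1.25e-07). The Slit ligand genes moved apart, Slit1 from 97.9, 152 and 141 to 2040, 2863 and 2926 (4.32, SE 0.35, adjusted p = 6.64e-06) and Slit3 from 4291, 3740 and 3370 to 604, 292 and 330 (-3.28, SE 0.25, adjusted p = 3.83e-06). Among Eph receptors, Epha1 fell from 8875, 7785 and 7977 to 354, 398 and 371 (-4.45, SE 0.21, adjusted p = 2.07e-07) while Ephb3 rose by 1.76 (SE 0.16, adjusted p = 9.32e-06). The ephrin Efnb2 fell by 3.44 (SE 0.39, adjusted p = 0.000103), and Efna1 rose by 2.19 (SE 0.35, adjusted p = 0.000505).

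Epithelium and matrix. The streak is where epiblast cells lose their epithelial junctions, and definitive endoderm is again an epithelium. Of 28 tested epithelial junction genes 16 rose and 3 fell, of 13 keratin and desmosome genes 6 rose and 0 fell, of 22 mesenchymal and EMT genes 2 rose and 11 fell, and of 17 integrins 2 rose and 8 fell. Without 7H2 the EMT genes gave 6 falls, and the integrins gave 5 falls without 7H or without 7H2. Krt8 and Krt18, the paired keratins of simple epithelia, moved together. Krt8 stood at 3492, 4643 and 6711 in PS and at 33683, 32535 and 32426 in DE1 (log2 rise 2.78, SE 0.35, adjusted p = 0.000283), and Krt18 at 1697, 2362 and 2459 and then at 17813, 17637 and 16734 (3.02, SE 0.29, adjusted p = 3.86e-05). Ovol2, a repressor of mesenchymal genes, stood at 45.0, 93.8 and 129 and then at 1360, 1619 and 1587 (4.20, SE 0.31, adjusted p = 2.98e-06). Grhl3, an epithelial factor, rose from 152, 126 and 126 to 994, 1028 and 1008 (2.90, SE 0.17, adjusted p = 6.12e-07). Cdh1 (E-cadherin) rose less, from 12265 ± 1127 to 18283 ± 1162 (0.58, SE 0.10, adjusted p = 0.00101), and Cdh2 (N-cadherin) was not called (9392 ± 1195 and 9736 ± 771, adjusted p = 0.906). Fn1 (fibronectin) went from 60289, 48307 and 39602 to 16289, 9413 and 11184 (-2.02, SE 0.20, adjusted p = 2.63e-05), and Snai1, a repressor of Cdh1, from 1035, 1164 and 1470 to 309, 285 and 279 (-2.05, SE 0.30, adjusted p = 0.000295). Pdgfra, a mesodermal receptor also found in endoderm precursors, was an exception in the EMT list, from 843, 1293 and 1160 to 4583, 5061 and 5515 (2.22, SE 0.24, adjusted p = 3.53e-05).

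Of 32 tested basement membrane and matrix genes 11 rose and 4 fell, and 8 fell in a fit of the 6 libraries alone. The laminin chain Lama5 stood at 14585, 12844 and 8841 in PS and at 36870, 36557 and 45282 in DE1 (log2 rise 1.73, SE 0.20, adjusted p = 5.78e-05), and Lamc1 at 8693, 8367 and 6835 and then at 21531, 21658 and 24876 (1.51, SE 0.13, adjusted p = 6.87e-06). Nid2, a linker of laminin and collagen IV, fell by 1.26 (SE 0.14, adjusted p = 4.2e-05). Fibroblast and feeder markers, 16 in the table, summed to 15174, 3951 and 8557 in PS and to 9953, 4902 and 4751 in DE1, with 1 of 14 tested rising and 7 falling (2 falling without 7H2), and none of the 16 was at 0 in all 6 libraries. Line 7H was highest at both stages, and the part of this signal in the matrix and EMT counts was not tested.

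**Figure D3:**
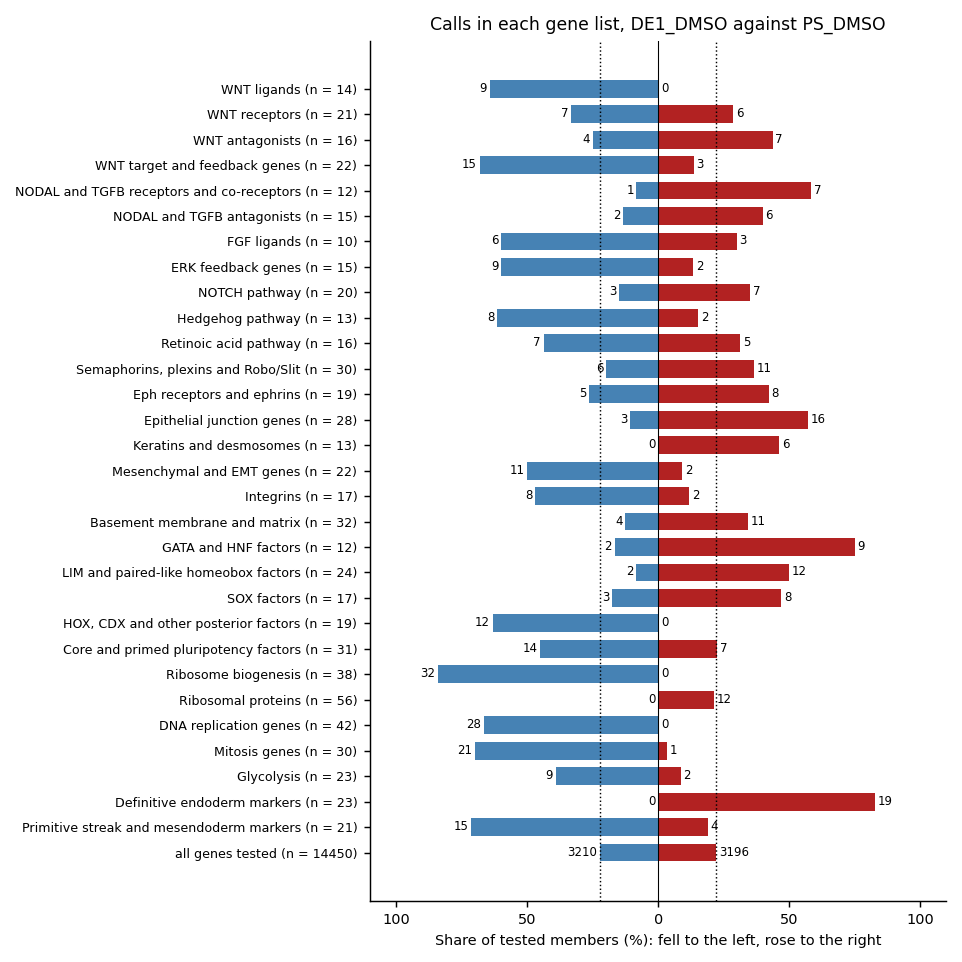
Share of tested members of each gene list that fell (blue, to the left) or rose (red, to the right) in DE1_DMSO against PS_DMSO, with the number of genes beside each bar and the number tested in brackets. Dotted lines mark the 22.2% and 22.1% of all tested genes that fell and rose. Bars reach furthest to the right for definitive endoderm markers (19 of 23) and furthest to the left for ribosome biogenesis (32 of 38).

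Transcription factors. GATA and HNF factors drive endoderm genes in many animals. Of 12 tested, 9 rose and 2 fell. Gata1, best known as a red cell factor, stood at 8.01, 11.04 and 21.6 in PS and at 649, 698 and 757 in DE1 (log2 rise 5.70, SE 0.37, adjusted p = 1.3e-06, chrX:7959260-7978071), and its DE2 mean was 142. Hhex, a homeobox gene of the anterior endoderm, rose from 682, 894 and 1248 to 5494, 6015 and 6263 (2.69, SE 0.21, adjusted p = 3.92e-06). The PS and DE1 values of both genes did not overlap, and Zfpm2 and Prox1 were the members that fell.

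The 7-base GATA core AGATAAG or its reverse complement CTTATCT is in 239 of 10876 promoters of tested genes (2.20%). It is in 46 of 1293 promoters of genes that rose at least 2-fold (3.56%), in 24 of 1010 that fell at least 2-fold (2.38%) and in 2.17% of those not called. It is in 0 of 18 promoters of definitive endoderm markers. In all 6 strings were searched, the others being the FOXA core TGTTTAC, in 3.25% of the promoters of genes that rose at least 2-fold, 2.97% of those that fell at least 2-fold and 2.61% of all, and the E2F core TTTCCCGC, in 1.16, 1.49 and 1.88%. For the OTX2 core these shares were 5.96, 7.23 and 6.21%, and for the E-box 8.74, 9.01 and 9.65%. These shares were not tested and the promoters shown were chosen after the values of the genes were seen. Sfrp5 and Stra6, described above, hold the core 236 and 217 bases before the start. Pilra, Pilrb1 and Pilrb2, neighbouring genes of paired immunoglobulin-like receptors, hold it 163, 217 and 217 bases before theirs. The stretches are chr19:42202253-42202502 (Sfrp5, minus strand), chr9:58133825-58134014 (Stra6, plus strand), chr5:137836339-137836528 (Pilra), chr5:137858110-137858299 (Pilrb1) and chr5:137871819-137872008 (Pilrb2, all on the minus strand), printed 5′ to 3′ on the gene's strand from the RefSeq table (GRCm38.p6) with the core in capitals. No printed stretch holds both the GATA and the TCF/LEF core.
Sfrp5: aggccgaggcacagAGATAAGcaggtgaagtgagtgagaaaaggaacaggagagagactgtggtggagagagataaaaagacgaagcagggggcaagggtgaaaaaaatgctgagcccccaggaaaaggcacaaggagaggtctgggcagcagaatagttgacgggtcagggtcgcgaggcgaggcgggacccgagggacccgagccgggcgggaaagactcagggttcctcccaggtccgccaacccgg
Stra6: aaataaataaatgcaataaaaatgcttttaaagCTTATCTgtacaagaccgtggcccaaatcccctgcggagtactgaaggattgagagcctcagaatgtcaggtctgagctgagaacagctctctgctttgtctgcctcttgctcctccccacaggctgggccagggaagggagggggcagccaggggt
Pilra: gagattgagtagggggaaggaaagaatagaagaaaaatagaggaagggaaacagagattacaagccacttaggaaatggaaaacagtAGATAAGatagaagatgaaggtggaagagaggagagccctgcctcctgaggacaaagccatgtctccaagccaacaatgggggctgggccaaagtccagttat
Pilrb1: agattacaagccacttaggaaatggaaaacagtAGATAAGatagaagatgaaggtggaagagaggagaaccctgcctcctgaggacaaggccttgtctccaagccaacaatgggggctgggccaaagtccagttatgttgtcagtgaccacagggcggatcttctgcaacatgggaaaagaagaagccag
Pilrb2: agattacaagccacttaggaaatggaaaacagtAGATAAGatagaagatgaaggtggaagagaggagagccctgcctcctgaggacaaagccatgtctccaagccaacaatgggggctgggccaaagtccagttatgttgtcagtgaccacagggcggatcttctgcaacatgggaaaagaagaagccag

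Over 150 bases around the core, Pilra and Pilrb2 are equal at 150 and Pilrb1 matches each of them at 147. These bases lie before the start, and the transcripts were not compared. Whether reads of these genes were shared out between them was not tested, so their separate values are uncertain. Pilra stood at 9.86, 5.18 and 17.1 in PS and at 1839, 1561 and 1944 in DE1 (log2 rise 7.38, SE 0.61, adjusted p = 6.75e-06). Pilrb1 went from 0, 2.18 and 0.889 to 153, 190 and 185 and Pilrb2 from 1.25, 7.64 and 4.48 to 178, 230 and 220, both called and both picked after their values were seen (adjusted p = 3.16e-05 and 0.000127). All 3 genes were near 0 in PS and well above it in every DE1 library.

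Of 34 tested FOX factors 10 rose and 9 fell, with 5 falls without 7H2. These counts lie near the 22.1% and 22.2% of all tested genes that rose and fell. Foxq1, a forkhead factor of foregut and skin, stood at 464, 856 and 1121 in PS and at 14166, 14837 and 15801 in DE1 (log2 rise 4.29, SE 0.21, adjusted p = 3.19e-07, chr13:31556134-31560976). Foxa1, a pioneer factor of endoderm, rose from 306 ± 33.0 to 1242 ± 124 (2.02, SE 0.24, adjusted p = 6.45e-05). Foxb1, a neural forkhead gene, stood at 175, 145 and 82.9 and was listed at 0 in every DE1 library. Of 17 SOX factors 8 rose and 3 fell. Sox17, the endoderm factor, went from 1134, 2443 and 3031 to 10534, 12367 and 12424 (2.53, SE 0.26, adjusted p = 3.58e-05), and Sox2, a factor of pluripotent and neural cells, from 1251, 1146 and 1196 to 170, 91.4 and 105 (-3.33, SE 0.59, adjusted p = 0.00224). Among 24 LIM and paired-like homeobox genes 12 rose and 2 fell (0 fell without 7H2). Lmx1b, a LIM gene of midbrain and limb, stood at 8.61, 24.8 and 15.2 and then at 1047, 970 and 1116 (6.03, SE 0.44, adjusted p = 2.67e-06). Rax, a gene of the eye field, was listed at 0, 0 and 0.898 in PS and stood at 103, 129 and 129 in DE1. Tbx2, a T-box repressor, rose from 20.0, 7.64 and 11.7 to 417, 387 and 458 (4.99, SE 0.44, adjusted p = 9.13e-06).

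Posterior factors. Of 19 tested HOX, CDX and other posterior factors 12 fell and 0 rose, with a median log2 fold change of -2.49, 7 were not called, and 5 to 7 fell without any 1 line. Evx1, a homeobox gene of the posterior streak, stood at 3654, 3619 and 3961 in PS and at 111, 49.6 and 53.5 in DE1 (log2 fold change -5.79, SE 0.56, adjusted p = 1.74e-05). Hoxb1 went from 251, 198 and 140 to 0, 4.18 and 0, and Nkx1-2, a gene of the caudal epiblast, from 1070, 565 and 528 to 2.25, 0 and 3.29 (-8.15, SE 0.97, adjusted p = 8.23e-05). Of 22 anterior endoderm and foregut markers 12 rose and 2 fell, and of 13 hindgut and posterior endoderm markers 0 rose and 9 fell, with 5 falls without 7H or without 7H2. These lists share genes with the WNT, NODAL and streak lists. Of 31 pluripotency factors 7 rose and 14 fell. Klf5, a zinc-finger factor of early embryonic cells, went from 1438 ± 234 to 343 ± 31.0 (-2.06, SE 0.24, adjusted p = 5.74e-05). Sall4, a zinc-finger factor of pluripotent cells, rose from 8080 ± 791 to 18202 ± 1986, and so did Esrrb, a naive pluripotency receptor, from 20.0 ± 6.52 to 162 ± 21.1.

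Growth and cell cycle. Ribosomes are assembled in the nucleolus by a large set of processing factors, and the ribosomal proteins are encoded apart from them. Of 38 tested ribosome biogenesis genes 32 fell and 0 rose, with a median log2 fold change of -0.787, and 30 to 31 fell without any 1 line. Under quantile scaling 32 fell and 1 rose. Ddx21, an RNA helicase of the nucleolus picked after its values were seen, stood at 20535, 20210 and 20024 in PS and at 7928, 7587 and 8053 in DE1 (-1.37, SE 0.13, adjusted p = 1.62e-05). Heatr1, a factor of ribosomal RNA synthesis and processing, went from 8326, 8079 and 7645 to 3071, 2569 and 2993 (-1.48, SE 0.14, adjusted p = 1.19e-05), and Bop1, of the large subunit, from 6109 ± 636 to 2307 ± 82.1 (-1.40, SE 0.13, adjusted p = 1.38e-05). Npm1 (nucleophosmin) was not called (70583 ± 4067 and 61812 ± 2163, adjusted p = 0.179). The 56 ribosomal protein genes did not follow: 12 rose, 0 fell and the median was 0.20. The rises rest on the lines, with 0 called without 7H, 0 without 7H1 and 25 without 7H2, and 5 in a fit of the 6 libraries alone. Over all tested genes, 7H was lowest for 35.1% and 7H2 highest for 40.9% in PS, and 7H2 was lowest for 31.1% in DE1. For the ribosomal proteins, 7H was lowest in PS for 51 of the 56 genes and 7H2 highest for 53, and in DE1 7H2 was lowest for 45. Rps18, for example, stood at 21503, 22565 and 27870 and then at 35481, 36364 and 30753, and its call (adjusted p = 0.0108) was lost without 7H (0.0757) and without 7H1 (0.0836).

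**Figure D4:**
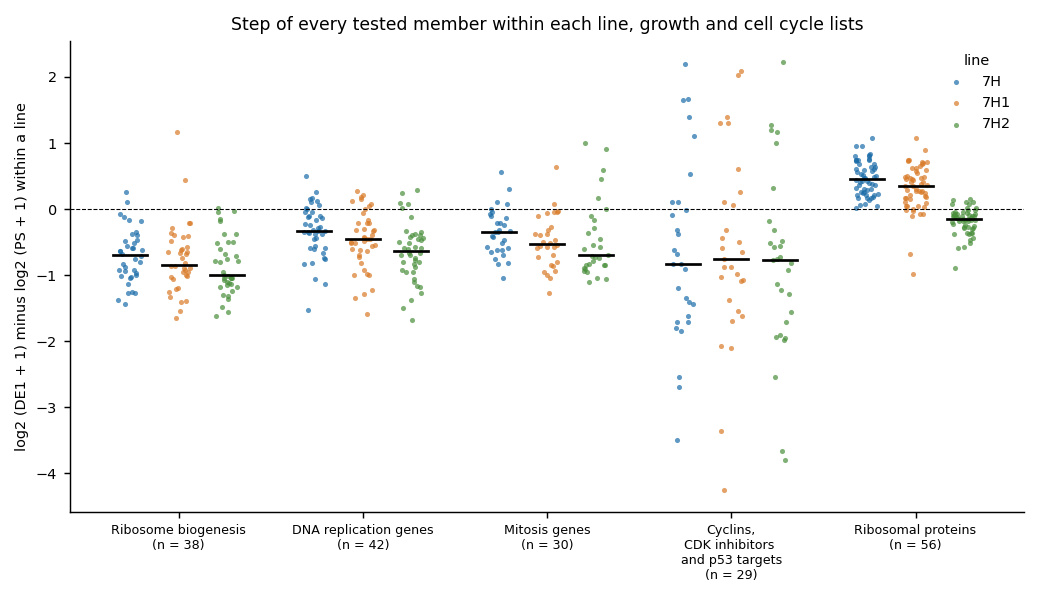
Log2 of the DE1 value plus 1 minus log2 of the PS value plus 1 within each line for every tested member of 5 growth and cell cycle lists, 1 point per gene and line, with a black bar at the median of the line. In ribosome biogenesis all 3 medians lie below 0, and for ribosomal proteins line 7H2 lies below 0 while 7H and 7H1 lie above it.

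Of 42 tested DNA replication genes 28 fell and 0 rose, with 12 falls without 7H2 and 25 without 7H, and under quantile scaling 29 fell and 1 rose. Lig1, which joins Okazaki fragments, stood at 11766, 11446 and 12137 in PS and at 4062, 3823 and 3799 in DE1 (log2 fold change -1.60, SE 0.09, adjusted p = 4.98e-07). Its fall was larger than that of the helicase subunit Mcm3 (-0.96, SE 0.09, adjusted p = 1.52e-05), while the subunits Mcm6 (7776 ± 495 and 8640 ± 173, adjusted p = 0.162) and Mcm7 (11242 ± 1222 and 9979 ± 492, adjusted p = 0.216) were not called. Of 30 mitosis genes 21 fell and 1, Nusap1, rose. Plk1, a mitotic kinase, went from 6996, 6690 and 7117 to 3397, 3350 and 3297 (-1.05, SE 0.11, adjusted p = 2.32e-05). Among 29 cyclins, CDK inhibitors and p53 targets 5 rose and 17 fell. The CDK inhibitor Cdkn1b (p27) stood at 961, 1227 and 1053 and then at 4396, 5251 and 4923 (2.17, SE 0.16, adjusted p = 2.67e-06), whereas its relative Cdkn1a (p21) went from 4145, 2768 and 3632 to 1266, 859 and 942 (-1.78, SE 0.18, adjusted p = 2.22e-05). The cyclins Ccnd3 (-1.77, SE 0.10, adjusted p = 4.21e-07) and Ccne1 (-1.43, SE 0.13, adjusted p = 1.43e-05) fell, and the kinase Cdk4 was not called (17602 ± 3551 and 17392 ± 1581, adjusted p = 0.987).

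Metabolism. Of 23 tested glycolysis genes 2 rose and 9 fell, and only 2 of the falls were called without 7H2. The glucose transporter Slc2a3 stood at 6370, 6409 and 5760 in PS and at 55378, 61083 and 58259 in DE1 (log2 rise 3.24, SE 0.38, adjusted p = 0.000218), and Hk1, a hexokinase, at 610, 460 and 558 and then at 4907, 4456 and 4816 (3.13, SE 0.17, adjusted p = 4.21e-07). Gapdh, often taken as a reference gene, went from 150100, 151127 and 182447 to 118934, 114783 and 113579 (-0.47, SE 0.11, adjusted p = 0.00546), a call lost without 7H2 (adjusted p = 0.0748). Among 32 genes of serine, one-carbon and amino acid metabolism 7 rose and 11 fell, with 3 rises without 7H and 4 without 7H2. Aldh1l1, a cytosolic folate enzyme, rose from 181, 140 and 338 to 2043, 2569 and 2647 (3.55, SE 0.34, adjusted p = 1.66e-05), and Ahcy, which removes the by-product of methylation, fell from 13688, 14454 and 16714 to 5668, 5294 and 5262 (-1.46, SE 0.15, adjusted p = 2.33e-05). Of 23 imprinted genes, expressed from 1 parental allele in many tissues, 10 rose and 8 fell, against 6 and 5 without 7H2. Grb10, an adaptor of the insulin receptor, stood at 8963, 9024 and 8767 and then at 70418, 84076 and 83308 (3.15, SE 0.17, adjusted p = 3.43e-07). Igf2 rose by 2.92 (SE 0.33, adjusted p = 0.000124) and Mest by 2.37 (SE 0.33, adjusted p = 0.000438), while Snrpn fell by 1.45 (SE 0.15, adjusted p = 2.74e-05). Alleles were not separated.

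Largest changes. By level, Amot, which encodes the junctional scaffold angiomotin, gained most, from 16875, 20442 and 19219 in PS to 131628, 149255 and 158686 in DE1 (log2 rise 2.96, SE 0.13, adjusted p = 1.52e-07). The largest loss of level was that of D10Wsu102e, from 126412, 143352 and 97370 to 23990, 20624 and 21269 (-2.46, SE 0.28, adjusted p = 0.000107). By fold, Pga5, a pepsinogen gene, rose from 98.5, 99.6 and 197 to 26436, 32602 and 28552 (7.86, SE 0.25, adjusted p = 8.41e-08), and reached a mean of 82881 in DE2. Casr, the calcium-sensing receptor, went from 1.39, 0 and 3.01 to 392, 657 and 720 (8.07, SE 0.62, adjusted p = 3.91e-06). Myocd, a cofactor of cardiac and smooth muscle genes, went from 9.65, 1.20 and 1.38 to 570, 834 and 720 (7.52, SE 0.56, adjusted p = 3.57e-06). Slc6a4, the serotonin transporter, rose from 6.11, 0 and 1.76 to 437, 517 and 576. Among the falls, Slpi, a secreted protease inhibitor, stood at 459, 386 and 569 and then at 0, 4.67 and 0 (-8.03, SE 0.64, adjusted p = 4.57e-06). Gria4, a glutamate receptor subunit, went from 260, 269 and 149 to 0, 0 and 1.09. Phospho1, a phosphatase of mineralising cells, stood at 122, 130 and 146 and was listed at 0 in every DE1 library. Several of these genes are at or near 0 on 1 side, where the fitted fold depends on the 1 that was added.

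Markers of other cell types. Of 20 tested visceral endoderm and hepatic secretory markers 5 rose and 1 fell, and the list's 24 genes in the table summed to 2478 to 3084 in PS and 37340 to 43748 in DE1. Pga5 alone gave 26436 to 32602 of the DE1 sum. Apoe, a lipid carrier, rose by 2.65 (SE 0.28, adjusted p = 7.13e-05) and Hnf4a, a liver and visceral endoderm factor picked after its values were seen, rose from 0, 0 and 3.23 to 27.4, 57.4 and 113. Of 16 cardiac and lateral mesoderm markers 7 rose and 2 fell, with Nkx2-5 at 0 in all 6 libraries. Their sum was 2504 to 4866 in PS and 6455 to 7721 in DE1. Myl7, an atrial myosin chain, rose from 4.96, 17.6 and 29.6 to 428, 439 and 445 (4.87, SE 0.50, adjusted p = 2.68e-05). Of 16 blood and endothelial markers 4 rose and 4 fell, with 0 falls without 7H2 and 2 without 7H or 7H1. Their sum went from 4065 to 5349 in PS up to 25047 to 29394 in DE1. Flt1, a VEGF receptor, made up most of it, at 3151, 3709 and 3998 and then 21934, 23369 and 25944 (2.72, SE 0.13, adjusted p = 2.07e-07), and Runx1 rose from 191, 141 and 168 to 1663, 1888 and 2040 (3.48, SE 0.19, adjusted p = 4.27e-07). Tal1, a defining blood factor, was listed at 0 in all 3 DE1 libraries. Of 16 neural markers 4 rose and 5 fell, and their sum went from 6564 to 8600 in PS down to 2042 to 2242 in DE1. Nes (nestin) fell by 3.17 (SE 0.18, adjusted p = 6.12e-07). Other marker sums also went up: node and notochord markers from 46376 to 49317 in PS to 84783 to 100520 in DE1 (5 of 17 tested rose and 3 fell), parietal endoderm markers from 28819 to 38549 up to 63016 to 66162 (7 of 16 rose, 4 fell), trophoblast markers from 18869 to 23299 up to 48168 to 49387 (5 of 16 rose, 3 fell) and germ cell markers from 5098 to 8661 up to 26519 to 29418 (4 of 9 rose, 2 fell). These lists share genes with the matrix, keratin and endoderm lists, such as Cer1, Lamc1, Krt8, Krt18, Kit and Sox17. Cer1 alone made up most of the node and notochord sum in every DE1 library, while T, in that list too, fell. The part of other cell types in these values was not tested.

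Spread between the lines. Line 7H was mostly the lowest line in the endoderm markers at both stages, a pattern noticed after the values were seen and not tested. Line 7H had the lowest value for 19 of the 23 tested definitive endoderm markers (82.6%) in PS and for 19 in DE1, against 35.1% and 32.4% of all tested genes. Line 7H2 had the highest value for 18 of the 23 in PS (78.3%) and for 13 in DE1 (56.5%), against 40.9% and 33.8% of all tested genes. In DE1, 7H1 was highest for 8 (34.8%), near its 32.1% of all tested genes. Trh, the gene of thyrotropin-releasing hormone and a marker of endoderm in this list, stood at 370, 1309 and 2083 in PS and at 9250, 40571 and 24224 in DE1 (log2 rise 4.38, SE 0.49, adjusted p = 0.00022), so 7H was lowest both before and after the step, while 7H1 and 7H2 changed places. Of the 1689 genes that rose at least 2-fold, 55.0% were lowest in 7H in DE1, and of the 1407 that fell at least 2-fold 52.7% were highest there. Among all tested genes, 32.4% were lowest and 33.5% highest in 7H in DE1. The 7H libraries also had the fewest estimated reads, 20.7 M in PS and 23.4 M in DE1 against 23.7 to 32.6 M in the others, and the highest fibroblast and feeder sums, and the part of either in the order of the lines was not tested.

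**Figure D5:**
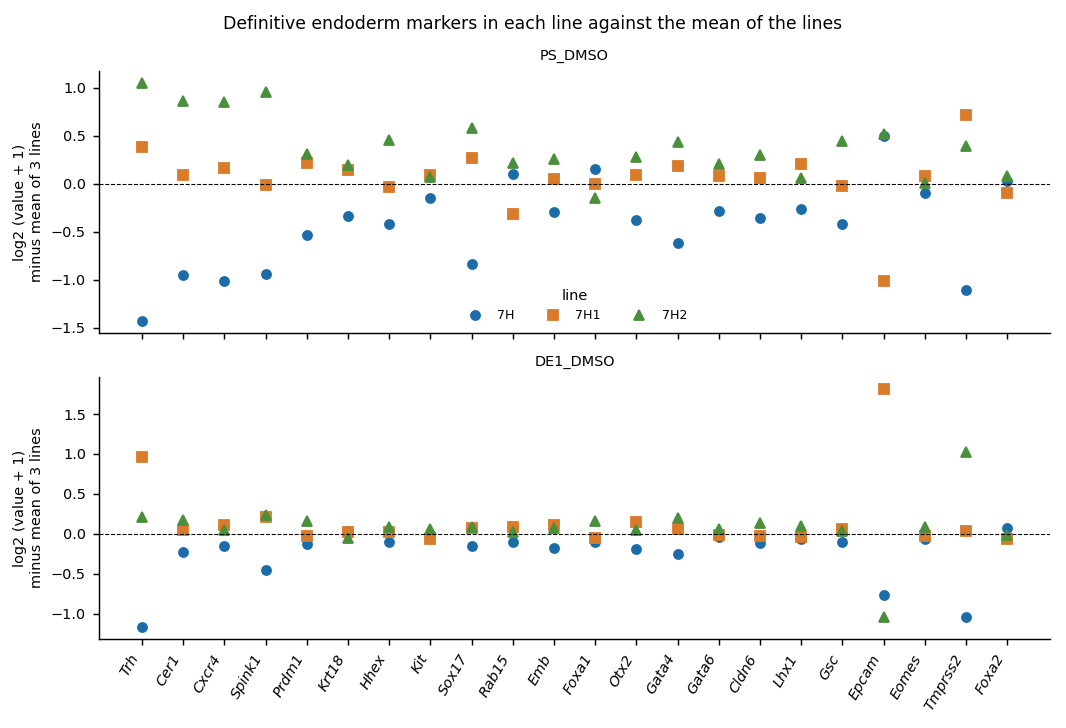
Log2 of the value plus 1 in each line minus the mean of the 3 lines, for 22 of the 23 tested definitive endoderm markers in PS_DMSO (upper panel) and DE1_DMSO (lower panel), with 1 symbol and colour per line. Blue circles (7H) are the lowest symbol for most markers in each panel, and green triangles (7H2) are the highest for most in PS.

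The same step with dTAG13. In cells given dTAG13, the degrader of the tagged OTX2, the difference of the step from that in vehicle cells was tested over 15037 genes with the line within each stage as a block. It was called for 954 genes (6.34%), with the log2 step higher (more positive) with dTAG13 in 440 (2.93%) and lower (more negative) in 514 (3.42%). The count was 352 to 542 without any 1 of the lines, in fits of fewer libraries, and 322 with no block. Fzd5, which rose by 4.62 in vehicle cells, rose by 2.41 with dTAG13 (difference -2.21, SE 0.16, adjusted p = 4.7e-06). Cdh1 rose by 0.58 in vehicle and had a fold change of -1.10 with dTAG13 (difference -1.68, SE 0.09, adjusted p = 7.65e-07). Lgr5, a receptor of R-spondins, changed by 0.61 and 2.67 (difference 2.06, SE 0.19, adjusted p = 2.77e-05), and its vehicle call was lost without any 1 of the lines (adjusted p = 0.0698 to 0.18). Rax, listed at or near 0 in PS, had a step of 6.61 in vehicle and -0.22 with dTAG13 (difference -6.82, SE 0.80, adjusted p = 0.00018). Ddx21 and Heatr1, of ribosome biogenesis, gave differences of -0.08 (SE 0.13, adjusted p = 0.817) and 0.04 (SE 0.12, adjusted p = 0.896), and Pou5f1, a pluripotency factor that fell by 4.61 in vehicle, gave -0.32 (SE 0.18, adjusted p = 0.349).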

How the data were processed

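PolyA RNA-seq of 24 libraries was deposited as 1 table of 18205 genes. The deposited signal values are read counts that the authors normalised with DESeq2 on mm10, per the submitters' processing notes. No label or header names the aligner, the counter, its strand setting or the annotation. Low values were within 0.1 of a whole read in 61 to 69.7% of cases, so reads were not recovered and no count model was run. GENCODE M21 held 18116 of the gene IDs, 71 names were blank and 23 names turned into dates were restored.

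The step DE1_DMSO minus PS_DMSO was fitted with limma 3.58.1 (R 4.3.3, statmod 1.5.0) on log2 of the value plus 1 in the 12 vehicle libraries, with 4 stages, the cell line as a block, an intensity trend and robust moderation. Genes with at least 10 in at least 3 of the 12 libraries were tested, two-sided, with Benjamini-Hochberg adjustment over all of them. The residual degrees of freedom were 6. The difference of the step between dTAG13 and DMSO was fitted in 24 libraries with the line within each stage as a block. The script was tested on simulated data with independent noise, no line effect and few changed genes. That run checks the code only and does not bear on the calls reported here. Tables and plots used Python 3.11.15, pandas 2.3.3, numpy 2.4.6 and matplotlib 3.10.9.

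Libraries pair because they come from the same line, per the labels. The deviations of same-line PS and DE1 libraries correlated at 0.108 (7H), 0.0522 (7H1) and 0.0203 (7H2), and those of different lines at -0.079 to 0.0298.

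Some named genes are not reported here. Members and lists were chosen with earlier results of these data known. Genes were named by rule: Otx2, the 12 largest called rises and falls whose mean over the 6 libraries reached 50, the 6 largest changes of level each way, up to 4 called members per direction and 3 not called per list, and 5 per direction for the difference. Exceptions are marked in the text. Alternatives changed the block, libraries, pseudocount (0.5 and 5), filter, scaling, moderation and lines. Reads of near-identical copies may have been shared between genes.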

Additional observations from a re-analysis of the deposited data

Results flagged for a closer look

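In cells given dTAG13 the step from PS to DE1 differed from that in vehicle cells for 954 of 15037 genes (6.34%) by limma's test of the difference itself, and the named genes among them follow with that difference on the log2 scale, dTAG13 step minus DMSO step. The PS and DE1 vehicle libraries enter both the step and the difference. Without any 1 line the count was 352 to 542.

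Among WNT pathway genes the difference was negative for the receptors Fzd5 (-2.21) and Fzd10 (-1.47), and positive for Fzd7 (0.765), Lgr5 (2.06), Sfrp1 (0.824), Frzb (1.43) and Apcdd1 (2.09). It was positive for the WNT targets Axin2 (1.72), Tnfrsf19 (1.45) and Sp8 (3.32), which fell in vehicle cells. In other signalling lists it was negative for Lefty1 (-0.633) and positive for Cer1 (1.43), Msx1 (3.5), Id4 (1.96), Fgf10 (1.04), Notch1 (1.61) and Hey1 (1.88).

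Among transcription factors positive differences were found for Otx2 (0.747), Eomes (1.06), Foxa2 (0.773), Mixl1 (1.51), Sox17 (2.18), Sox2 (1.34), Prox1 (1.74) and Snai1 (0.978). Negative differences were found for Esrrb (-2.93), Klf5 (-1.54), Sall4 (-0.527), Grhl3 (-2.19), Rax (-6.82) and Hnf4a (-4.94).

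Among guidance, adhesion and matrix genes the difference was negative for Ephb3 (-0.797), Cdh1 (-1.68), Lama5 (-0.799) and Lamc1 (-1.08) and positive for Slit3 (1.93), Epha1 (0.867), Efnb2 (1.62), Pdgfra (2.64) and Nid2 (0.609). Of the remaining named genes it was negative for Amot (-1.08), Casr (-4.34), Gapdh (-0.383), Grb10 (-1.08), Slc2a3 (-1.52) and Snrpn (-0.448) and positive for Pga5 (1.06).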

How the results depend on the processing

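With 1 of the 3 lines left out, the genes called for the vehicle step numbered 4235 to 4824 in all, 2186 to 2437 higher and 2049 to 2387 lower, against 6406, 3196 and 3210 with all lines. Line 7H2 gave the lowest of these. With no replicate block the counts were 3271 higher and 3308 lower, and the block changed no named call. The other settings gave counts within 1.5 times of those reported. Quantile scaling gave 2926 higher and 3320 lower.

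The difference of the step rested more on the settings. With no replicate block 322 genes were called, 123 higher and 199 lower. With 1 line left out the counts were 352 to 542 in all, 127 to 262 higher and 199 to 280 lower. Equal totals gave 545 higher and 443 lower, and the cause was not tested.

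Of 2539 values of 171 named genes under the alternatives, 2497 kept direction and call, 28 lost the call, 9 gained it and 5 changed sign. The sign changes were of genes not called. With 1 line left out their log2 fold changes ranged from -0.0895 to 0.208 for Cdh2, -0.00225 to 0.037 for Smo, -0.0598 to 0.0837 for Cdk4 and -0.104 to 0.363 for S100a10. The alternative that removed genes with a 0 beside 50 or more was chosen after seeing the data and gave 6455 calls. With 3 lines a group, low genes and small changes were the least certain, and the values hold no read counts.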

Other observations

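A run of neighbouring epidermal genes on chromosome 3 was lower in DE1, a pattern picked after the values were seen. These genes belong to the epidermal differentiation complex, whose products build the outer barrier of the skin, and they lie between 92080271 and 93526287 (GRCm38). Sprr2a2, a small proline-rich protein gene, stood at 1967, 1551 and 1811 in PS and at 79.87, 3.57 and 16.08 in DE1 (log2 fold change -6.58, limma adjusted p = 0.0001254). Tchh (trichohyalin) stood at 790.6, 628.7 and 451 and then at 13.46, 6.795 and 23.1 (-5.45, adjusted p = 9.113e-06). Both genes were lower in every line with no overlap.

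Hrnr, Lor, Crct1, Sprr2a1, Sprr2a3, Rptn and S100a11 also fell, S100a11 by only 1.17 on the log2 scale. Sprr2a1 and Rptn were listed at 0 in every DE1 library. Within the run Gm4202 was not called, and Ivl, Flg2, Sprr1a, Lce1g, Lce1h and Tchhl1 were too low to be tested. Of all tested genes 22.2% fell. The neighbouring S100a10 was not called, with means of 8549 in PS and 8674 in DE1 (adjusted p = 0.848). The small proline-rich genes are near-identical copies, so the split of reads among them is uncertain.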
